A study of Mus musculus with 36 samples.

Results

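The 316 microarray probes described here rose between day 1 and day 6 in cultured secondary mouse embryonic fibroblasts (MEFs) that received no doxycycline. They were chosen from the 25030 probes of the authors' deposited log10 table, of which they make up 1.26%. A probe was taken when the mean of the 4 Dox- day 6 arrays exceeded that of the 4 Dox- day 1 arrays by at least 0.6 on the log10 scale, every day 6 array lay above every day 1 array, and the day 6 mean was at least 2.5. The choice used the measured values of these 8 arrays, so the rise itself is given below as a description with no test. Each probe is a 60-base oligonucleotide named by its design identifier. The files used here pair no probe with a gene, so the members are named by identifier and printed by sequence, and the pathway and cell marker lists prepared for them could not be applied.

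The study, on the generation of induced pluripotent stem (iPS) cells with Zscan4, hybridised 36 arrays in 18 groups of 2. The sample was labelled with Cy3 and a common reference, pooled mouse cell line RNA mixed with 129 ES cell RNA, with Cy5. The secondary MEFs (2ndMEF-KOS-ZERT2, C57Bl/6 x 129 hybrid, all labelled as clone #1) were kept in ES cell medium with LIF and sampled on days 1, 3 and 6. They were grown without (Dox-) or with (Dox+) doxycycline at 1.5 ug/ml, each without (Tmx-) or with (Tmx+) tamoxifen at 200 nM. All secondary MEFs therefore carried the KOS and Zscan4ERT2 transgenes, the Dox- cultures included. The other groups were primary Zscan4ERT2 transgenic MEFs and wild MEFs (both F1 hybrids from V6.5), each Tmx- and Tmx+ in MEF medium and with no day given, KOS-ZERT2 iPS cells (labelled clone #2), and v6.5 ES cells. Groups follow the titles. The treatment text of the wild MEF Tmx+ arrays and of Dox-Tmx+ day 1 replicate 2 does not mention tamoxifen. The labels do not say if both arrays of a group stem from different cultures. P-values therefore measure only array-to-array spread, which may be technical.

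Fibroblasts are connective tissue cells that secrete and remodel the extracellular matrix, and their expression changes with plating, density, serum and time in culture. KOS is the usual shorthand for the reprogramming factors Klf4, Oct4 and Sox2, which in secondary MEFs are switched on by doxycycline, and early reprogramming is known for the loss of the fibroblast expression programme. Zscan4 is expressed in early embryos and in a fraction of ES cells, and a fusion to ERT2, a modified oestrogen receptor domain, is activated by tamoxifen.

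The sequences of 8 probes are given first, because they span the patterns met with below: a large rise that was smaller under doxycycline, rises that were larger under doxycycline, falls under doxycycline, and large differences of either sign between Dox+ and Dox- on day 3. They are written as deposited, in lower case with no bases marked.
Z00018229-1: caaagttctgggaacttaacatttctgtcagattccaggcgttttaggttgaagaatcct
Z00016045-1: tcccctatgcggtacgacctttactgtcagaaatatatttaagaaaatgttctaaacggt
Z00030484-1: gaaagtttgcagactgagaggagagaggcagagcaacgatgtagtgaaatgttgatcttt
Z00022925-1: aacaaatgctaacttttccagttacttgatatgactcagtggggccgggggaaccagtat
Z00070384-1: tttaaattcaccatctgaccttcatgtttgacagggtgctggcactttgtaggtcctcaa
Z00024473-1: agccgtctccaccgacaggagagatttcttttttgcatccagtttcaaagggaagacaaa
Z00025746-1: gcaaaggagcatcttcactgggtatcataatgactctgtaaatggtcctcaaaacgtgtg
Z00036124-1: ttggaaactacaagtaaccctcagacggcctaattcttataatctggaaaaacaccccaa

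The member sequences were close to the other probes of the table in composition. Their median GC content was 41.7% (quartiles 36.7% and 45.0%), against 43.3% (36.7% and 48.3%) over all 25030. No pair of members shared a run of 20 bases on the deposited strand, so none of them overlapped by that much. The letters AATAAA, the polyadenylation hexamer, stood in 35 members (11.1%) and in 7.90% of all probes, and on the other strand in 6 members (1.90%) and 3.62% of all. The letters ATTTA stood in 23 members (7.28%) and in 7.73% of all probes, as deposited. The files used here give no genome position for any probe.

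Without doxycycline, the members rose 5.75-fold at the median in the deposited table between day 1 and day 6, with quartiles of 4.67- and 8.63-fold and a range from 3.99- to 60.1-fold. The median change of all 25030 probes was 0. The median member went from a deposited log10 value of 2.50 on day 1 to 3.31 on day 6. These values are in the main ratios to the common reference: for 93.5% of the members' values they equal the scanner software's log10 ratio of sample over reference plus 1 constant per probe, within 2e-04, and for 85.0% over all probes. They set the arrays of 1 probe against each other, and the constant, whose making is not stated, says nothing about differences between arrays. At the threshold, Z00046331-1 and Z00006262-1 were just inside with rises of 0.6009 and 0.6022 on the log10 scale, and Z00034783-1 and Z00070327-1 just outside with 0.5999 and 0.5991. Another 151 probes met the rise and the separation but not the day 6 minimum, and 64 fell by the mirrored rule. The table has a lower floor: 3657 probes shared 1 value over more than 18 of the 36 arrays, between 1.00 and 1.40, and 7 members had a Dox- day 1 mean under 1.40, so their rises are read from near that floor. All 316 were well above background on all 4 Dox- day 6 arrays, and 296 on all 4 Dox- day 1 arrays. None was saturated on any array.

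The rise went on through both intervals. All 4 Dox- day 3 arrays lay above all 4 Dox- day 1 arrays for 302 members (95.6%, against 23.3% of all probes), and all 4 day 6 arrays above all 4 day 3 arrays for 307 (97.2%, against 17.7%). Both counts use arrays of the rule. In the deposited table, the median member had reached 52.5% of its rise on the log scale by day 3. By then 174 members (55.1%) were past the midpoint, with a day 3 mean above it. A day 3 mean above the midpoint was also met by 45.3% of all probes. In probes that fell, such a mean is one not yet past the midpoint, so that share is no background for the members. The values that follow are log2 ratios of sample to reference unless said otherwise. On this scale an offset added before the logarithm makes the changes of dim probes smaller. The members rose by a median of 2.23 (range 1.13 to 5.26) from day 1 to day 6, by 0.96 from day 1 to day 3, and by 1.25 from day 3 to day 6. As log2 ratios, the median step was thus larger after day 3, over an interval that was also longer. The change was in the sample dye: the member median of the Cy3 channel moved by 2.49 and that of the Cy5 reference by 0.03.

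Z00018229-1 had the largest rise in the deposited table. Its log2 ratios were -1.22, -0.83, -0.96 and -0.98 on the Dox- day 1 arrays, then 1.41, 1.14, 1.20 and 1.40 on those of day 3. By day 6 they were 3.07, 3.01, 2.95 and 3.38. The 3 days did not overlap. Primary MEFs lay higher again, between 5.63 and 5.91 over 8 arrays. Z00076693-1 had the next largest rise and another course. It read 0.15, 0.19, 0.05 and 0.11 on the day 1 arrays and 0.36, 0.39, 0.39 and 0.36 on those of day 3. The day 6 arrays then read 2.38, 2.58, 2.41 and 2.96. Most of its rise came after day 3, and its deposited day 1 mean of 1.00 on the log10 scale is at the floor.

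The members' levels differed widely over the 18 groups. As each array's median over the members of the difference from the probe's own Dox- day 1 mean, the Dox- arrays stood at 0.95 to 1.02 on day 3 and at 2.14 to 2.36 on day 6. The Dox+ arrays stood at -0.06 to 0.01 on day 1, 0.22 to 0.30 on day 3 and 0.59 to 0.84 on day 6. The 8 primary MEF arrays lay at 2.26 to 2.51, and the 4 iPS and ES cell arrays at -0.66 to -0.54. The median over all 33099 probes kept for the fit stayed between -0.05 and 0.02 on every array. Since the Dox- day 1 arrays chose the members, these distances are descriptions. The values come from bulk RNA, in which a change in the makeup of the culture and a change in RNA per cell cannot be told apart.

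**Figure D1:**
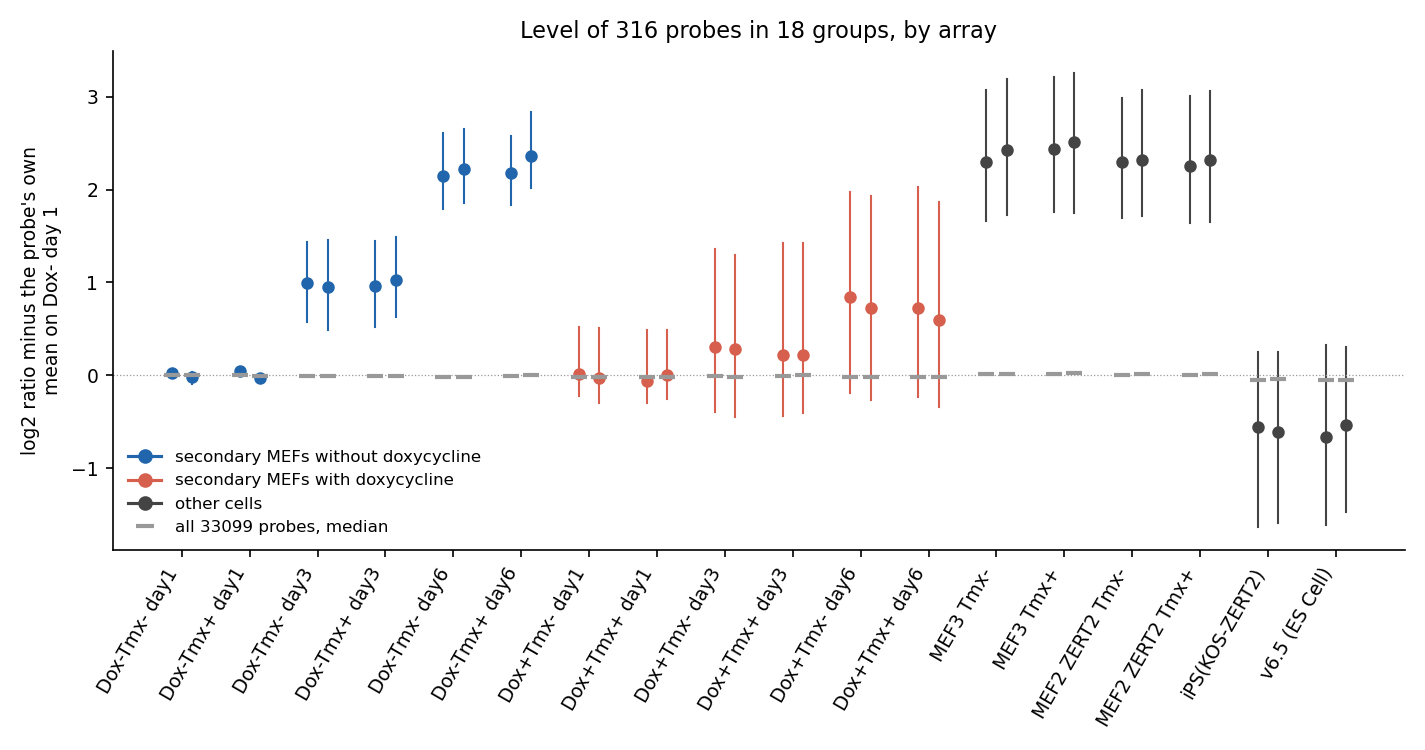
Log2 ratio of the 316 members minus each probe's own mean over the Dox- day 1 arrays, for each of 36 arrays in 18 groups. Points are medians over members, lines span the quartiles, and grey bars are the medians of all 33099 probes. The Dox- day 6 arrays reach 2.14 to 2.36 and the primary MEF arrays 2.26 to 2.51, while the Dox+ day 6 arrays reach 0.59 to 0.84 with wide quartiles.

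With doxycycline the members rose by less at the median, some fell, and some rose more. The change from day 1 to day 6 within the Dox+ arrays, none of which the rule used, was tested with limma over 33099 probes at a Benjamini-Hochberg adjusted p of 0.05, two-sided, with 4 arrays on each side (Tmx- and Tmx+ averaged). Of the 316 members, 193 were higher on day 6 (61.1%), 79 were lower (25%) and 44 were not called. Over all probes, 33.4% were higher and 31.5% lower. Without a limit on size, the share called higher thus lay above the background and the share called lower below it. The member median was 0.55 (quartiles -0.17 and 1.41, range -3.04 to 5.72) and that of all probes -0.01. By at least 2-fold, 106 of the 316 members were called higher and 23 lower (against 5.59% and 2.95% of all probes). Both of these shares lay above the background. The groups did not overlap for 186 members in the higher direction (against 30.6% of all probes) and for 75 in the lower (against 29.1%).

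The question of whether doxycycline blocked the rise was put on the deposited scale, where the members were chosen. The same 3 criteria, applied to the Dox+ arrays, were met by 60 of the 316 members (19.0%), against 424 of all 25030 probes (1.69%). For 243 members (76.9%, against 96.2% of all probes) the upper 95% bound of the Dox+ change lay under the rise that the rule asks for, a 3.98-fold change. For 57 members (18.0%, against 2.19%) the lower bound was at or over it. At the median, members rose by 2.52 log2 units without doxycycline and by 0.68 with it, and the median member kept 25.2% of its rise. The Dox+ change was below 0 for 102 members (against 50.4% of all probes). It was at least as large as the Dox- rise for 35 members (11.1%). Over all probes, 53.2% had a Dox+ change at least as large as the Dox- change, which was often no rise. A low share among members chosen for a large Dox- rise is favoured by that choice, so these 2 shares are not a result about doxycycline. Because the Dox- rise chose the members, the difference between both changes was not tested.

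**Figure D2:**
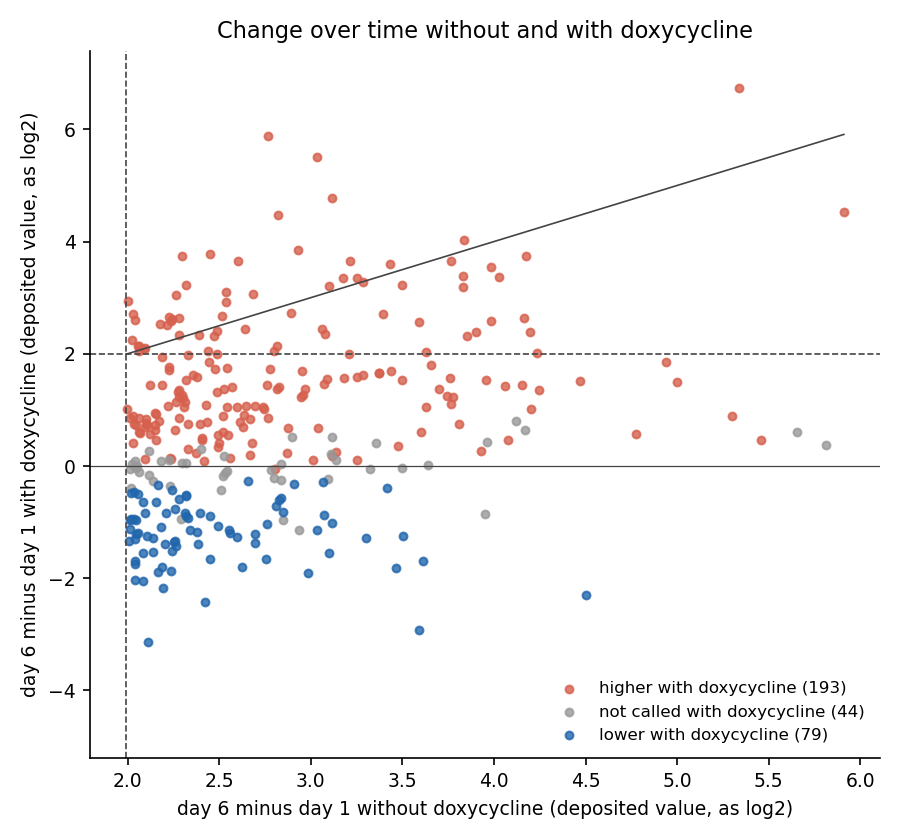
Change from day 1 to day 6 in the authors' deposited table, as log2, for the 316 members, without doxycycline on the x axis and with it on the y axis. Colours give the limma call of the Dox+ change on the log2 ratio (193 higher, 44 not called, 79 lower), dashed lines mark the 3.98-fold threshold, and the diagonal marks equal change. For 35 members the Dox+ change was at least the Dox- rise, and 102 lie below 0.

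On the log2 ratio, which also orders the probes named below, Z00070384-1 and Z00022925-1 rose most with doxycycline among the members. In the deposited table they rose by 5.87 and 5.50 log2 units, and Z00024662-1 by 6.74. Z00070384-1 had log2 ratios of -3.93, -4.05, -4.06 and -4.02 on the Dox+ day 1 arrays and 1.55, 1.69, 1.85 and 1.71 on day 6, a rise of 5.72 (SE 0.08, 52.6-fold, limma adjusted p = 4.2e-25). Without doxycycline it went from -4.73, -4.64, -4.76 and -4.84 to -2.68, -2.65, -2.58 and -2.11, so its Dox+ day 6 arrays stood above every other secondary MEF array, and also above the primary MEFs (-0.86 to 0.48). For Z00022925-1 the Dox+ arrays read 1.27, 1.12, 1.19 and 1.23 on day 1 and 5.21, 5.05, 5.14 and 4.83 by day 3. At 6.86, 6.83, 6.69 and 6.89, the day 6 arrays were higher again. Its rise to day 6 was 5.62 (SE 0.08, limma adjusted p = 3.83e-25), and the Dox- day 6 arrays stood at 4.45 to 4.80. On day 6 both probes stood higher with doxycycline than without.

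On the log2 ratio, Z00024473-1 and Z00025746-1 fell most with doxycycline. In the deposited table they changed by -3.14 and -1.81 log2 units, and other members fell further than Z00025746-1. Z00024473-1 read 3.22, 3.25, 2.95 and 3.04 on the Dox+ day 1 arrays, 1.80, 1.72, 1.36 and 1.39 on day 3 and 0.13, 0.13, 0.05 and -0.01 on day 6. It fell by 3.04 (SE 0.04, 8.22-fold, limma adjusted p = 2.12e-25), while its Dox- arrays went from -0.25, -0.37, -0.24 and -0.37 to 1.65, 1.76, 1.80 and 1.83. The courses crossed between day 3 and day 6. Z00025746-1 read 7.59, 7.51, 7.39 and 7.49 on Dox+ day 1 and 5.55, 5.49, 5.78 and 5.70 on day 6, a change of -1.87 (SE 0.07, limma adjusted p = 9.65e-18). Its Dox- arrays rose from 1.30 to 1.56 on day 1 to between 4.89 and 5.15 on day 6, so this probe fell with doxycycline from a level that its Dox- arrays had not reached.

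Both stood above the Dox- cultures on day 1, which was not so at the median of the members that fell. The 79 members that fell had a median Dox effect of -0.12 on day 1 and -2.93 on day 6, and 77 of them had a lower mean in Dox+ than in Dox- on day 6. The 193 that rose had medians of 0.02 on day 1 and -0.83 on day 6, with 135 lower in Dox+ on day 6. The 44 that were not called had -0.03 and -1.83, with 37 lower. The median Dox- rise was 2.28 in the members that rose with doxycycline, 2.10 in those not called and 2.19 in those that fell, so these medians lay close together. In the deposited table, the 4 Dox+ day 6 arrays lay below all 4 Dox+ day 1 arrays for 80 members (25.3%, against 28.3% of all probes). The 3 sets were cut by the Dox+ change among members chosen for a Dox- rise. In the members that fell, lower Dox+ means on day 6 are favoured by both choices. The medians and counts of the 3 sets therefore carry no test.

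Over all members, the 4 Dox+ day 6 arrays lay below all 4 Dox- day 6 arrays for 236 (74.7%, against 26.5% of all probes) and above them for 51 (16.1%, against 23.6%). On day 1, the Dox+ arrays lay above the Dox- arrays for 121 members (38.3%, against 22.3%) and below them for 125 (39.6%, against 26.2%), and for 20 (6.33%, against 26.7%) the Dox+ day 1 arrays already stood above all Dox- day 6 arrays. The median Dox effect was -0.03 on day 1 and -1.55 on day 6. All these counts use arrays of the rule and are descriptions.

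By day 3 of doxycycline the members were already split. Against Dox+ day 1, limma called 164 members higher (51.9%, against 32.6% of all probes) and 105 lower (33.2%, against 26.5%), with a member median of 0.17. The changes of at least 2-fold were 56 up and 22 down (against 4.37% and 1.35% of all probes). This comparison shares its Dox+ day 1 arrays with that of day 6. From day 3 to day 6 the members moved on by a median of 0.27 (quartiles -0.05 and 0.72), against a median of -0.01 over all probes. This last step was described and not tested.

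Z00024662-1 had the largest rise by day 3. It was not well above background on any Dox+ day 1 array (-2.34, -2.55, -2.61 and -2.32) and read 2.39, 2.09, 2.45 and 2.41 on day 3, which is at least 22.9-fold higher when the dim arrays are set to the lowest signal that counts as above background (limma adjusted p = 2.01e-21). The fitted difference of 4.79 log2 units depends on the offset, and was 8.24 in the deposited table. On day 6 it had come back to 1.04, 0.60, 1.21 and 0.73, so its highest level was on day 3. Its Dox- arrays rose on each day, from between -2.36 and -2.09 to between -0.23 and 0.37. Z00022925-1, described above, rose by 3.86 to day 3 (SE 0.08, limma adjusted p = 7.13e-22).

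On the log2 ratio, the lowest changes to day 3 were those of Z00059101-1 and Z00031078-1. Z00059101-1 went from 1.70, 1.75, 1.69 and 1.74 to -0.27, -0.20, -0.07 and -0.20, a change of -1.90 (SE 0.07, limma adjusted p = 3.49e-17), and was at 0.57, 0.41, 0.74 and 0.44 on day 6. Z00031078-1 went from 1.50, 1.55, 1.55 and 1.60 to -0.40, -0.45, -0.25 and -0.23, a change of -1.88 (SE 0.08, limma adjusted p = 2.25e-16), and was at 0.41, 0.27, 0.58 and 0.31 on day 6. Both fell to day 3 and lay between their day 3 and day 1 levels on day 6. Without doxycycline they reached 4.55 to 4.66 and 4.21 to 4.26 on day 6.

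On day 3, doxycycline went with lower levels of most members. The rule used neither side of this comparison, but the Dox- side is not free of the choice. In the deposited table, all 4 Dox- day 3 arrays lay above all 4 Dox- day 1 arrays for 302 members. Lower calls with doxycycline are thus favoured by the way the members were chosen. Between the 4 Dox+ and 4 Dox- arrays of day 3, limma called 206 members lower (65.2%) and 91 higher (28.8%), against 32% lower and 35.8% higher over all probes, and 19 were not called. The member median was -0.75 and that of all probes 0.00. Of the 316 members, 130 were called lower and 55 higher by at least 2-fold (against 4.66% and 8.45% of all probes). Both of these shares lay above the background, unlike the share called higher without a limit on size. The groups did not overlap for 208 members in the lower direction (against 31.2% of all probes) and 90 in the higher (against 34.9%). Among the 79 members that fell with doxycycline from day 1 to day 6, 69 were lower and 5 higher on day 3. Among the 193 that rose, 108 were lower and 75 higher. These 2 sets were cut by the Dox+ change from day 1 to day 6, so their counts are descriptions. Of the 79 that fell, 72 were already called lower on Dox+ day 3 than on Dox+ day 1.

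Z00030484-1 and Z00016045-1 were lowest relative to the Dox- arrays on day 3. Z00030484-1 read 0.25, 0.21, -0.20 and -0.22 with doxycycline and 4.69, 4.73, 4.53 and 4.57 without, a difference of -4.62 (SE 0.06, 24.6-fold, limma adjusted p = 6.36e-27). Z00016045-1 read 0.73, 0.52, 0.87 and 0.85 against 5.30, 5.34, 5.29 and 5.27, a difference of -4.56 (SE 0.06, 23.5-fold, limma adjusted p = 1.84e-26). The Dox+ arrays of Z00016045-1 were already low on day 1, at 1.49 to 1.64 against 3.79 to 4.03 without doxycycline, and ended at 0.94 to 1.32. Those of Z00030484-1 came up to 1.58 to 2.05 by day 6, a Dox+ rise of 1.40 (SE 0.06, limma adjusted p = 3.38e-16), and still lay far under the Dox- day 6 arrays at 5.96 to 6.20.

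Z00036124-1 and Z00073873-1 had the largest positive difference between Dox+ and Dox- on day 3. Z00036124-1 read 3.89, 3.98, 3.95 and 3.95 with it and -2.45, -2.46, -2.47 and -2.39 without, a difference of 6.39 (SE 0.04, 83.6-fold, limma adjusted p = 4.64e-32). On day 1 its Dox+ arrays already stood at 2.61 to 2.75 and its Dox- arrays at -3.98 to -3.77. Z00073873-1 read 2.05, 2.05, 1.71 and 1.71 against -2.47, -2.55, -2.54 and -2.48, a difference of 4.39 (SE 0.03, 21.0-fold, limma adjusted p = 2.63e-31). On day 1 the Dox+ arrays of Z00073873-1 stood at 0.55 to 0.86 and its Dox- arrays at -4.07 to -3.99. The Dox+ arrays of both probes were higher on day 6 than on day 1. The difference was 1.38-fold (limma adjusted p = 1.22e-09) for Z00036124-1 and 2.15-fold (limma adjusted p = 2.77e-19) for Z00073873-1. From day 3 to day 6 the Dox+ arrays changed by -0.80 log2 units for Z00036124-1 and by -0.07 for Z00073873-1. On day 6 the Dox- arrays were still below the Dox+ arrays, at 0.09 to 0.24 against 3.06 to 3.23 for Z00036124-1 and at -0.73 to -0.67 against 1.75 to 1.85 for Z00073873-1.

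**Figure D3:**
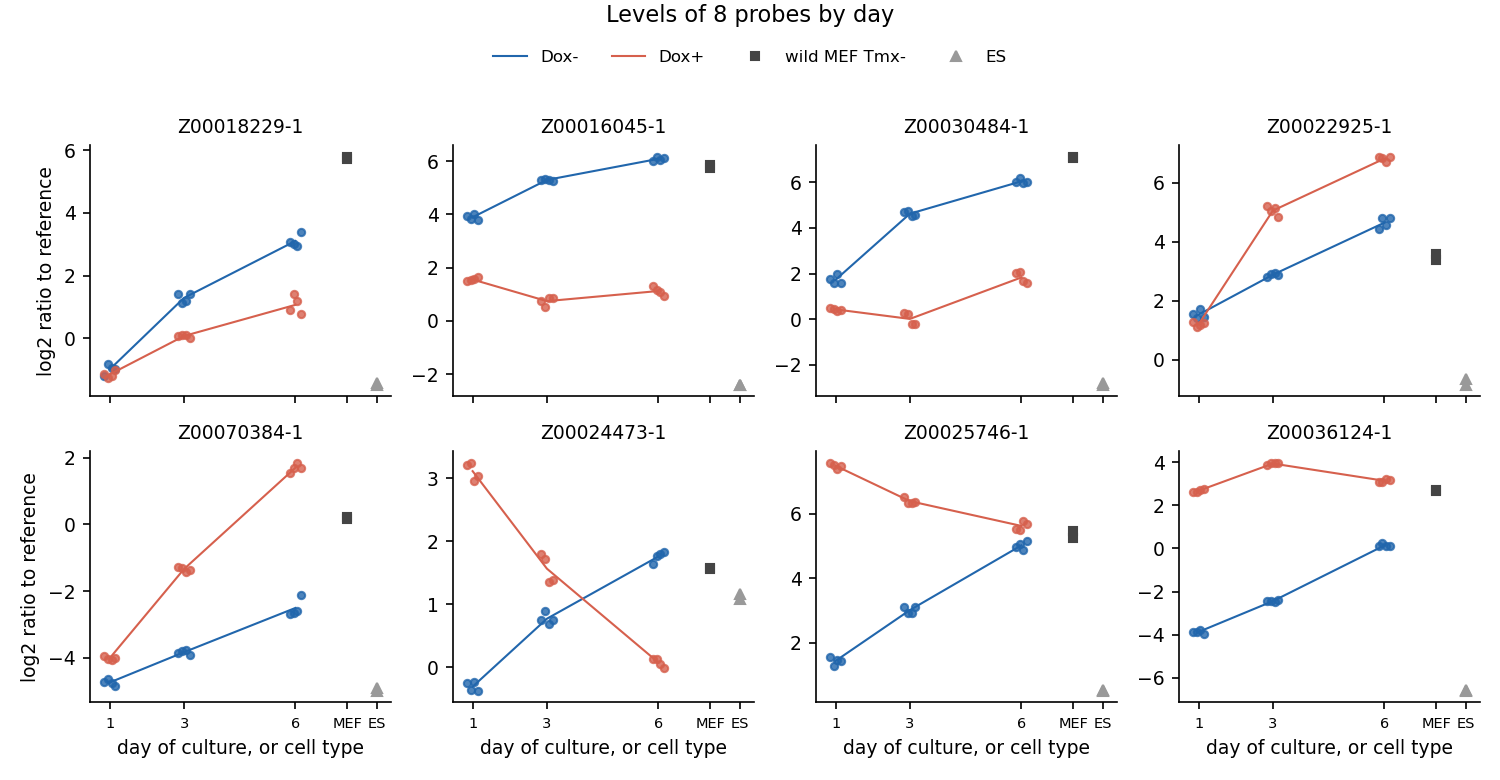
Log2 ratio of sample to reference for 8 members on days 1, 3 and 6 without and with doxycycline (points are the 4 arrays of each, lines join their means), beside the 2 wild MEF Tmx- arrays and the 2 ES cell arrays. Each panel has its own y axis. Z00016045-1 and Z00030484-1 stay low with doxycycline, Z00022925-1 and Z00070384-1 rise more with it, Z00024473-1 and Z00025746-1 fall, and Z00036124-1 is high from day 1.

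Day, doxycycline and slide cannot be told apart in the secondary MEF arrays. Each slide held the 4 Dox- or the 4 Dox+ arrays of 1 day, and the day 1 slides were scanned on another day than those of days 3 and 6, so no value within a slide or scan day exists for the change from day 1. The part of the slide in these changes was not tested. The Cy5 reference moved by a member median of 0.00 between Dox+ day 1 and day 6, and the Cy3 sample by 0.72. Per array, the share of probes well above background ran from 54.9% to 77.1%.

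Tamoxifen beside doxycycline went with small changes. Over the 6 Dox+Tmx+ and 6 Dox+Tmx- arrays, as the mean of the differences on days 1, 3 and 6, limma called 66 members lower with tamoxifen (20.9%, against 4.43% of all probes) and 32 higher (10.1%, against 8.76%). The member median was -0.02 (range -0.56 to 0.79), and no member changed by 2-fold. Leaving outlying local backgrounds as deposited brought the lower calls down to 32 and the higher calls to 24. Over all 33099 probes, calls in either direction also fell, from 4364 to 2300. Both tamoxifen arms of a day shared a slide. The Tmx+ arrays always took the last pair of the 4 positions on it, so tamoxifen and position cannot be told apart.

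Only 1 member had no overlap between all 6 Tmx+ and all 6 Tmx- arrays, Z00022523-1 (0.142% of all probes in the higher direction). It read -0.94, -0.95, -1.07, -1.01, -1.12 and -1.05 without tamoxifen and -0.93, -0.94, -0.75, -0.72, -0.69 and -0.63 with it, over days 1, 3 and 6 with 2 arrays each, a difference of 0.25 (SE 0.04, limma adjusted p = 2.24e-05, and at most 0.0146 over the planned and added alternatives other than a left-out array). The separation was small on day 1 and came mostly from days 3 and 6. Z00022523-1 did not pass the test of the Dox+ change from day 1 to day 6 (0.07, limma adjusted p = 0.188), while its Dox- arrays went from between -0.80 and -0.70 to between 1.26 and 1.41. The largest difference with tamoxifen was 0.79 (SE 0.04, limma adjusted p = 5.56e-12) in Z00075622-1. It read 2.92 and 3.01 without and 3.52 and 3.54 with tamoxifen on day 1, 4.01 and 4.01 against 4.85 and 4.78 on day 3, and 4.92 and 4.81 against 5.93 and 5.81 on day 6. On each day both Tmx+ arrays lay above both Tmx- arrays. Without doxycycline on day 6, the median Tmx+ minus Tmx- difference over the members was 0.10, as a description of arrays the rule used.

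In ES cells most members were far lower than in fibroblasts. The rule used neither side of this comparison, but it asked for a rise and a minimum level in fibroblast cultures. Lower calls in ES cells are thus favoured by the way the members were chosen. Between the 2 v6.5 ES cell arrays and the 2 wild MEF Tmx- arrays, limma called 284 members lower in ES cells (89.9%, against 40% of all probes) and 23 higher (7.28%, against 33.4%). The member median was -3.05 (quartiles -4.34 and -1.70, range -9.97 to 4.21) and that of all probes -0.04. By at least 2-fold, 261 were lower and 10 higher (against 17.5% and 12% of all probes). Of the members, 214 were well above background on both ES cell arrays and 74 on neither, so the differences of those 74 are bounds set by the background. Slide, scan day and medium all differed between ES cells and wild MEFs and cannot be told apart from cell type.

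**Figure D4:**
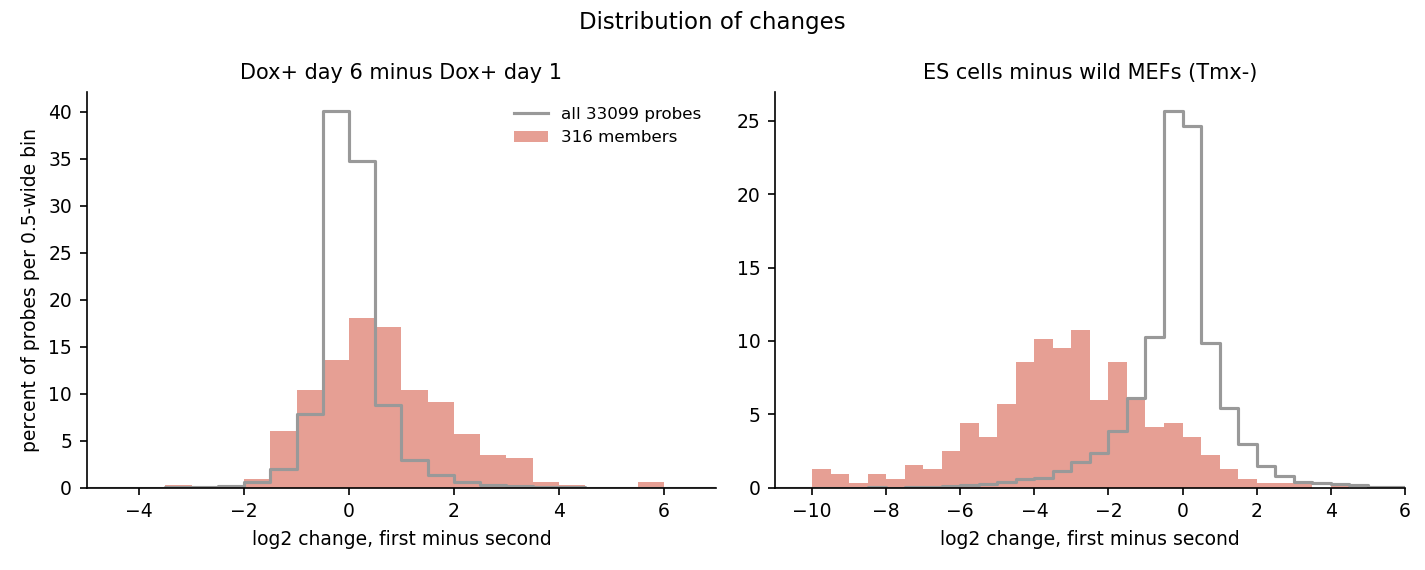
Distribution of log2 changes for the 316 members (bars) and all 33099 probes (line), as percent of probes per bin, for Dox+ day 6 minus day 1 (left) and ES cells minus wild MEFs (right). Members centre on 0.55 and -3.05, all probes on -0.01 and -0.04.

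Z00030484-1 and Z00025949-1 had the largest negative differences between ES cells and wild MEFs. Z00030484-1 read -2.88 and -2.82 in ES cells and 7.09 and 7.14 in wild MEFs, a difference of -9.97 (SE 0.09, limma adjusted p = 5.29e-30). Z00025949-1 read -4.12 and -3.88 against 5.78 and 5.91, a difference of -9.84 (SE 0.10, limma adjusted p = 6e-29). Only 1 of 2 ES cell arrays of Z00025949-1 was well above background, and the difference ran from -12.18 to -9.84 over the other settings. The order of both probes turned in the deposited table, where Z00030484-1 differed by -9.84. With doxycycline Z00025949-1 went from 1.25 to 1.36 on day 1 to between -0.35 and 0.48 on day 6, a change of -1.24 (SE 0.07, limma adjusted p = 5.84e-14), and without it reached 5.42 to 5.73.

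Z00043720-1 and Z00075622-1 had the largest positive differences between ES cells and wild MEFs. Z00043720-1 read 0.67 and 0.63 in ES cells and -3.64 and -3.49 in wild MEFs, a difference of 4.21 (SE 0.06, 18.6-fold, limma adjusted p = 1.3e-25). Z00075622-1 read 2.26 and 2.11 against -1.03 and -0.87, a difference of 3.14 (SE 0.07, limma adjusted p = 4.53e-22). Only 1 of 2 wild MEF arrays of Z00075622-1 was well above background, and the difference ran from 3.14 to 4.63 over the other settings. Both were also higher with doxycycline than without on day 3, by 2.59 (SE 0.05, limma adjusted p = 2.36e-24) and 4.38 (SE 0.05, limma adjusted p = 8.49e-28). These probes stand apart from the bulk of the members, whose levels were higher in fibroblasts than in ES cells.

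The members' levels in iPS cells were close to those in ES cells. The iPS minus ES difference had a member median of -0.01 (range -1.03 to 0.74), and 203 members were well above background on both iPS arrays and 97 on neither. It was described and not tested.

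At the median, primary MEFs carried the members near the level that Dox- cultures had on day 6. All 8 primary MEF arrays lay above all 4 Dox- day 1 arrays for 310 members (98.1%, against 23.2% of all probes) and below them for 0 (against 24.1%). Set against the Dox- day 6 arrays, all 8 lay above for 112 members (35.4%, against 14.8%) and below for 82 (25.9%, against 14.4%). These counts use arrays of the rule, and the primary MEFs grew in another medium. Zscan4ERT2 MEFs differed from wild MEFs by a member median of -0.07, and tamoxifen moved the Zscan4ERT2 MEFs by a member median of 0.00, both described without a test.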

How the data were processed

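Arrays were 2-colour Agilent 60-base oligonucleotide arrays, scanned by the authors; per the file headers the image software was Agilent Feature Extraction, version 9.5.1.1. Deposited scanner files hold spot intensity and local background per channel, and a log10 ratio. The authors' deposited table holds log10 values for 25030 probes. How it was made is not given in the sources used here: most values are the scanner files' log10 ratio, turned to sample over reference, plus a constant per probe that correlates with mean log10 reference intensity (r of 0.987 over probes). Column medians were 2.37 to 2.46, and rows were joined by feature number. That table chose the members. Members, lists and tests were chosen with earlier results of these data known.

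For the tests, local backgrounds marked as outliers were replaced by the array median, intensities were corrected with normexp (offset 50) and loess within arrays, and log2 ratios of sample over reference were fitted with limma 3.58.1 in R 4.3.3 (18 group means, 18 residual degrees of freedom). Of 42006 probes, 33099 passed the filter on dim probes, with all 316 members among them. Calls are Benjamini-Hochberg adjusted p under 0.05. Named probes are the 2 largest rises, the 2 nearest the threshold on each side, and the 2 highest and 2 lowest called members without overlap in each comparison. The pipeline was tested on simulated data. The number of arrays limits the precision. Alternatives covered background, normalization, filter, arrays fitted, slide and replicate blocks, and each array left out. Of the members, 1 probe sequence matched a RefSeq promoter window and 0 matched a miRNA hairpin, and neither was used.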

Additional observations from a re-analysis of the deposited data

Results flagged for a closer look

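For 80 of the 316 members, all 4 Dox+ day 6 arrays lay below all 4 Dox+ day 1 arrays in the authors' deposited table, while the same probes were higher on every Dox- day 6 array than on every Dox- day 1 array by the way they were chosen. The difference between the cultures was not tested, and its Dox- side is fixed by the selection. The Dox+ order was met by 25.3% of the members and by 28.3% of all 25030 probes, so the count lies near the background and is not a result about the members.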

How the results depend on the processing

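For the probes picked as highest or lowest in a comparison, no call in that comparison was lost or turned under any alternative. Calls of named probes in other comparisons, such as that of Z00075622-1 with tamoxifen, were not set against the alternatives. Counts of called members stayed within 1.5 times in all but 1 case: with outlying local backgrounds left as deposited, tamoxifen beside doxycycline gave 32 lower calls in place of 66. Applying the rule to the sample channel alone, not the ratio, after normexp and quantile normalization kept 182 of the 316 members, and all 316 still had every Dox- day 6 array above every Dox- day 1 array there. Leaving out 1 array with a faulty local background from the rule (chosen after seeing the data) kept 314. The replicate numbers gave no clear pairing of the samples. Over 15 pairs of the 6 Dox+ groups, 2 correlations of deviations exceeded 0.1 (range -0.26 to 0.53). Over all 18 groups, 34 of 153 did (range -0.61 to 0.53). With the replicate number as a block, the calls higher and lower were 193 and 80 for Dox+ day 6 minus day 1, 163 and 103 for day 3 minus day 1, 91 and 206 for doxycycline on day 3, 32 and 66 for tamoxifen and 23 and 284 for ES cells. With 1 array left out, they ranged over 189 to 194 and 76 to 79, 155 to 159 and 98 to 102, 87 to 91 and 204 to 207, 27 to 40 and 52 to 65, and 23 to 23 and 282 to 284. Fitting without 2 arrays of faulty background, also chosen after seeing the data, gave 193 and 80 for Dox+ day 6 minus day 1. With 2 arrays a group, probes near background (74 members on ES cells) have only bounds.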
